A study of Mus musculus with 4 samples.

Results

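The genes of the aryl hydrocarbon receptor (AHR) pathway were described in mouse T-helper 17 (Th17) cells. The 7 genes were chosen by name as the receptor (Ahr), its dimer partner (Arnt), its repressor (Ahrr) and 4 target genes (Cyp1a1, Cyp1b1, Tiparp and Nqo1), and all 7 were found among the 50600 genes of the files. The study holds 4 RNA sequencing libraries of 1 group, with no second condition. All 4 are primary Th17 cells of the C57BL/6NJ strain, labelled as biological replicates 1 to 4 from separate biosamples that share 1 donor label. Headers of the files mark each library as 72 hr and sorted, and age and sex were not recorded. The labels link a protocol for the differentiation of CD4+ T cells, and nothing is known here about the composition of the culture medium.

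AHR is a transcription factor that is activated by small aromatic molecules, such as pollutants, plant indoles and products of tryptophan. Without a ligand it is held in the cytosol by a complex that includes HSP90 and p23. With a ligand it enters the nucleus, pairs with ARNT and binds DNA at sites with the core GCGTG. Its classical targets encode enzymes that break down its own ligands, and proteins that restrain it, among them AHRR and TIPARP. Among helper T cells it is best known in Th17 cells, where it is needed for interleukin 22.

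Total counts ran from 9382661 in replicate 3 to 34542693 in replicate 1, with 23673174 in replicate 2 and 28629187 in replicate 4. By a chi-square per gene replicate 4 stood farthest from the others, with 13.7 to 18.5 against each of them. Among replicates 1, 2 and 3 it was 3.32 to 7.28. A chi-square on counts rises with depth, so the distances of replicate 3, the shallowest library, may be understated. Levels are given as TPM, counts per exonic base scaled to the same sum in every library. Replicates 1 and 2 were high in Xist, at 177 and 193 TPM, against 2.15 and 0.598 for replicates 3 and 4. The Y-linked Ddx3y was the reverse, at 0.165 and 0.133 TPM, against 59.7 and 55.2. The Th17 label held against its markers, with Il17a at 6741 to 8361 TPM and Il17f at 10550 to 12387 TPM. With this split in Xist and Ddx3y the libraries cannot all be from 1 animal, although they share 1 donor label, and what that label stands for is not stated. The labels do not say whether replicates 1 and 2, or 3 and 4, came from separate animals or cultures, so each p-value speaks only to the spread among these 4 libraries, which may be technical in part.

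The receptor was readily detected. Ahr (ENSMUSG00000019256.17, chromosome 12, 35497974 to 35535038, minus strand, mm10) had 48.0, 41.8, 61.2 and 33.1 TPM in replicates 1 to 4, from 3101, 1864, 1075 and 1790 counts. Replicate 3 was the highest and replicate 4 the lowest, and no 2 of the 4 intervals for counting error (95%, exact Poisson) overlapped. The mean was 46.0 ± 11.8 TPM (SD, n = 4), above 81.4% of the 21764 protein-coding genes. In bulk RNA, fewer cells that express a gene and less of its RNA per cell cannot be told apart.

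Arnt, the dimer partner that AHR shares with the hypoxia factor HIF1A, varied little across the libraries, with a coefficient of variation of 4.95%. This gene (ENSMUSG00000015522.18, chromosome 3, 95434388 to 95497240, plus strand) had 29.2, 31.8, 30.5 and 32.7 TPM in replicates 1 to 4, a mean of 31.1 ± 1.54 TPM (SD, n = 4). Ahr was therefore 1.64, 1.31, 2.00 and 1.01 times as abundant per base of exon as Arnt in the same libraries. In replicate 4 the transcripts of receptor and partner stood at the same level within counting error, with intervals of 31.6 to 34.7 TPM for Ahr and 31.4 to 34.1 TPM for Arnt. Arnt2, the paralogue of Arnt that is mainly neuronal, held 9 counts over all 4 libraries.

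Ahrr encodes a repressor that competes with AHR for ARNT and is itself a target of AHR. The gene (ENSMUSG00000021575.15, chromosome 13, 74211118 to 74292331, minus strand) had 4.65, 4.71, 5.42 and 3.92 TPM in replicates 1 to 4, from 455, 318, 144 and 320 counts. The mean of 4.67 ± 0.614 TPM (SD, n = 4) lay above 57.4% of protein-coding genes. Ahr exceeded Ahrr by 8.46-fold to 11.3-fold in TPM.

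The CYP1 family of monooxygenases, which oxidise aromatic compounds and AHR ligands, was unequally represented. Cyp1b1 (ENSMUSG00000024087.3, chromosome 17, 79706953 to 79715041, minus strand) had 88.7, 74.5, 111 and 66.1 TPM in replicates 1 to 4, from 4770, 2766, 1616 and 2971 counts. With a mean of 84.9 ± 19.5 TPM (SD, n = 4) it was the highest of the 7 genes and lay above 89.0% of protein-coding genes. Cyp1a1, the family member most often used as a readout of AHR in liver and skin, was much lower. It (ENSMUSG00000032315.6, chromosome 9, 57687928 to 57703824, plus strand) had 4.93, 4.66, 6.55 and 4.05 TPM from 144, 94, 52 and 99 counts, a mean of 5.04 ± 1.07 TPM (SD, n = 4). Cyp1b1 exceeded Cyp1a1 by 18.0-fold, 16-fold, 16.9-fold and 16.3-fold in TPM in replicates 1 to 4. The third member, Cyp1a2, which neighbours Cyp1a1 and is characteristic of hepatocytes, held 1 count over all 4 libraries. Reads that map to several places were not counted, so a stretch that Cyp1a1 and Cyp1a2 share would add to neither.

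The other targets lay at separate levels. Tiparp, also called Parp7, encodes an ADP-ribosyltransferase that modifies AHR and limits its activity. This gene (ENSMUSG00000034640.9, chromosome 3, 65528410 to 65555518, plus strand) had 26.5, 25.1, 29.1 and 28.1 TPM in replicates 1 to 4, a mean of 27.2 ± 1.79 TPM (SD, n = 4). Nqo1 encodes a quinone reductase controlled by AHR and by the oxidative stress factor NRF2. It (ENSMUSG00000003849.8, chromosome 8, 107388225 to 107403206, minus strand) had 3.31, 3.29, 3.61 and 3.82 TPM from 54, 37, 16 and 52 counts, a mean of 3.51 ± 0.254 TPM (SD, n = 4). In these low counts all 4 intervals overlapped, the widest being 2.07 to 5.87 TPM in replicate 3.

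**Figure D1:**
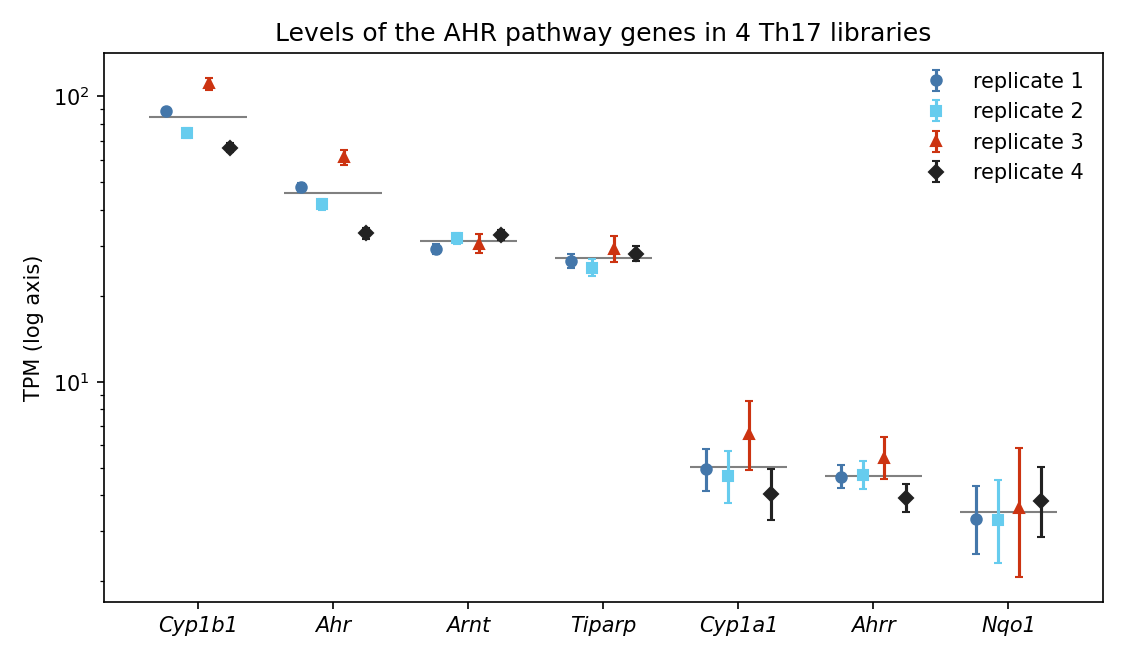
TPM (log axis) of the 7 AHR pathway genes in each of the 4 Th17 libraries, ordered by mean. Points are libraries, bars are 95% exact Poisson intervals that cover counting error only, and grey lines are means. Cyp1b1 and Ahr spread widely, with replicate 3 highest and replicate 4 lowest, while Arnt and Tiparp stay close to their means of 31.1 and 27.2 TPM.

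By mean TPM the genes ran from Cyp1b1 through Ahr, Arnt, Tiparp, Cyp1a1 and Ahrr to Nqo1. All 7 reached 1 TPM in each of the libraries, as did 47.6% of protein-coding genes. Levels were compared within libraries for all 21 pairs as log2(TPM + 1). This scale makes differences between low genes look smaller than they are. In 20 of the 21 pairs the higher gene was the same in each of the 4 libraries. An exact two-sided permutation test that flips signs gave each of those 20 pairs p = 0.125, the smallest that 4 libraries allow, and an adjusted p of 0.131 over the 21 pairs, so that none could reach 0.05.

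Neighbours in that order were separated to different degrees. Cyp1b1 exceeded Ahr by 0.88 ± 0.07 log2 units and Tiparp exceeded Cyp1a1 by 2.24 ± 0.22 (SD, n = 4). Ahr exceeded Arnt by 0.52 ± 0.41, with a difference of 0.02 in replicate 4. The difference of Arnt over Tiparp was 0.19 ± 0.11, and their counting intervals overlapped in replicate 3. Cyp1a1 and Ahrr differed by 0.08 ± 0.11, less than the spread between libraries, and by -0.01 in replicate 2 (exact sign-flip permutation test, p = 0.25, also after adjustment). Ahrr exceeded Nqo1 by 0.33 ± 0.20, with 0.03 in replicate 4, and their counting intervals overlapped in every library. Without the length correction, on CPM (counts scaled by library total), Cyp1a1 was below Ahrr with a difference of -1.44 log2 units; the exonic length is 2787 bases in Cyp1a1 and 9323 in Ahrr.

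A pattern was shared by 4 of the genes across the libraries. After scaling to CPM with TMM factors, which correct library totals for composition, Ahr, Cyp1b1, Cyp1a1 and Ahrr were each highest in replicate 3 and lowest in replicate 4. That makes 4 of 7 members, against 20.6% of the 12156 genes that passed the filter on low counts, as all 7 members did. Replicates 3 and 4 were picked for comparison with earlier results of these data known, and they are the extremes of these 4 genes. The shares of all genes given here and below are therefore a description and not a test. Ahr had 89.8, 78.7, 116 and 61.8 CPM in replicates 1 to 4, so that replicate 3 stood 1.88-fold above replicate 4. A larger difference in this direction was seen in 1.09% of all genes tested. Cyp1b1 had 138, 117, 175 and 103 CPM, 1.71-fold higher in replicate 3 than in replicate 4. Cyp1a1 had 4.17, 3.97, 5.63 and 3.42 CPM, a 1.65-fold difference. Ahrr had 13.2, 13.4, 15.6 and 11.1 CPM, a 1.41-fold difference.

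In CPM the counting intervals of replicates 3 and 4 were apart for these 4 genes and for no other member. The share of all genes tested was 17.4% in the same direction. For Cyp1a1 the gap was narrow, with a low end of 4.21 CPM in replicate 3 and a high end of 4.16 in replicate 4. In TPM its intervals overlapped, with 4.89 and 4.93 at the same ends. None of the 7 had intervals apart in the opposite direction, beside 14.7% of all genes. Replicate 3 was higher by any amount in 5 of the 7, and in 49.6% of all genes tested. Ahr, Cyp1b1 and Cyp1a1, or 3 of the 7, differed by at least 1.5-fold in this direction, as did 3.26% of all genes tested. The same 3 had at least 1.5-fold between the highest and the lowest library, as did 18.6% of all genes. The full order was the same in these 3 genes, with replicate 3 above 1, 1 above 2 and 2 above 4, an order held by 12.7% of all genes tested. Replicate 3 was the shallowest library and replicate 4 the deepest but for replicate 1, and the part of depth in this order was not tested.

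Arnt, Tiparp and Nqo1 did not share the pattern. Arnt had 71.0, 77.8, 75.5 and 79.4 CPM in replicates 1 to 4, a difference of -0.07 log2 units between replicates 3 and 4. Tiparp had 35.0, 33.4, 39.2 and 37.1 CPM, a difference of 0.08. Nqo1 had 1.56, 1.56, 1.73 and 1.80 CPM, a difference of -0.05. The median over the 7 members was 0.50 log2 units, beside 0.00 over all genes tested.

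**Figure D2:**
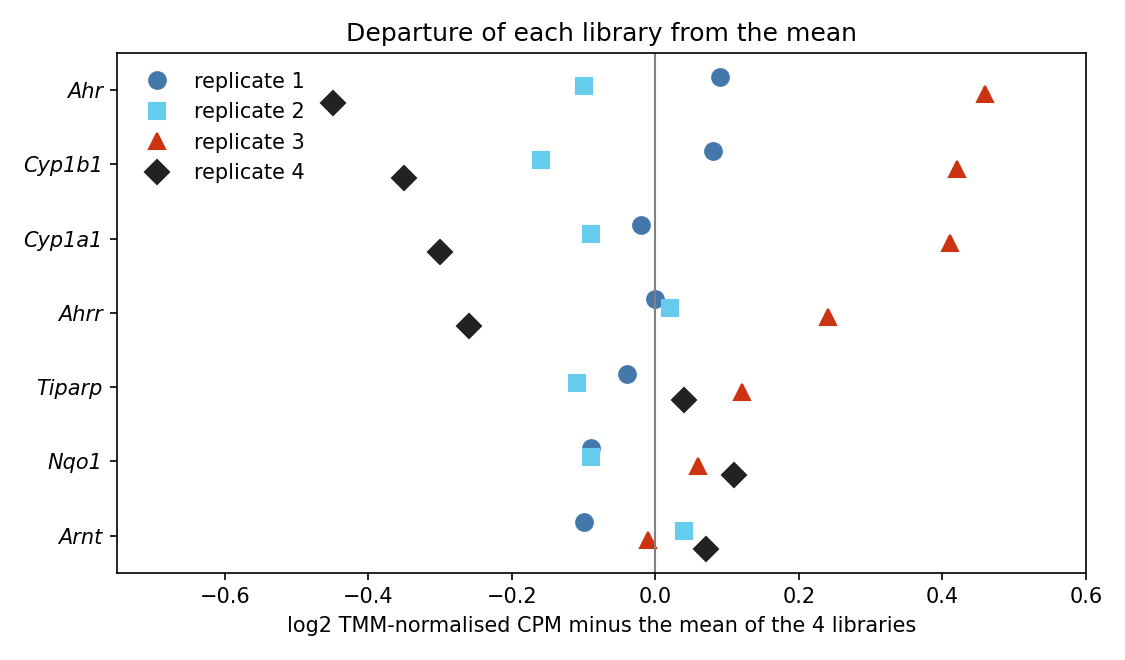
Log2 TMM-normalised CPM of each gene in each library, minus the mean of the 4 libraries (horizontal axis). Symbols are libraries, offset vertically so that none is hidden. In Ahr, Cyp1b1, Cyp1a1 and Ahrr, replicate 3 lies 0.24 to 0.46 above the mean and replicate 4 lies at -0.45 to -0.26, whereas the libraries of Tiparp, Nqo1 and Arnt stay between -0.11 and 0.12.

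Because Ahr, Cyp1b1 and Cyp1a1 varied in the same order, their ratios were steadier than their levels. The TPM ratio of Cyp1b1 to Ahr was 1.85, 1.78, 1.81 and 1.99 in replicates 1 to 4, with a coefficient of variation of 5.10%, beside 22.9% for Cyp1b1 and 25.7% for Ahr alone. The ratio of Ahr to Cyp1a1 was 9.74, 8.97, 9.35 and 8.18, with a coefficient of variation of 7.36%. The ratio of Ahr to Arnt varied by 28.6% and that of Ahr to Nqo1 by 26.4%. That of Ahr to Ahrr varied by 13.4%, no less than Ahrr alone at 13.1%. Ratios of this kind share the Ahr values and describe these 4 libraries.

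**Figure D3:**
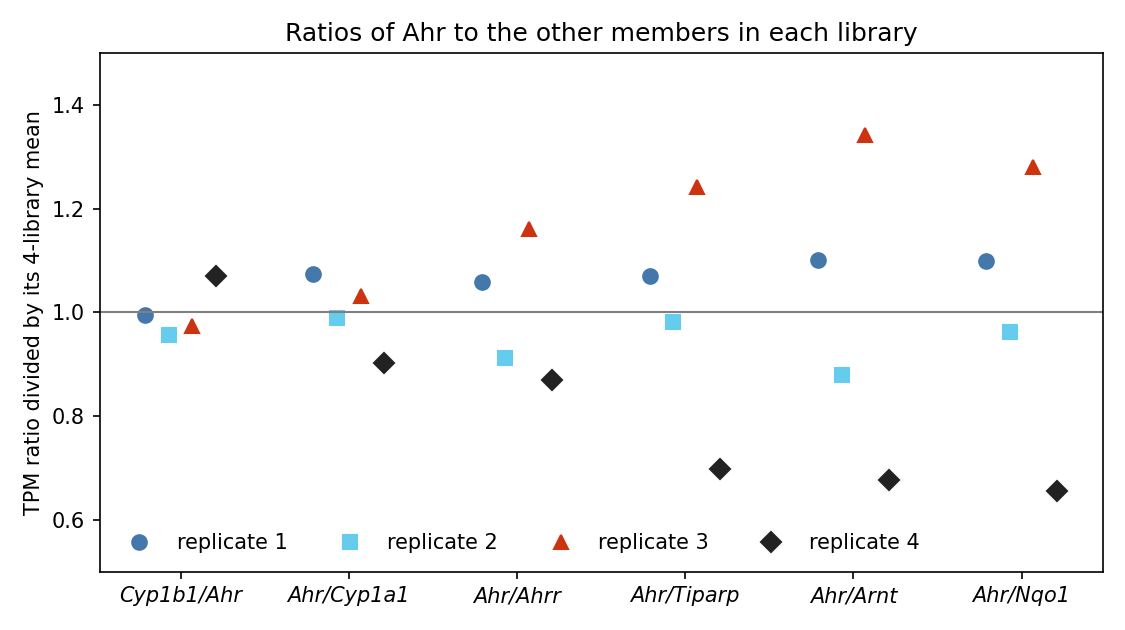
TPM ratios between Ahr and each other member, divided by the mean ratio over the 4 libraries (vertical axis, no log). Symbols are libraries. Cyp1b1/Ahr and Ahr/Cyp1a1 lie near 1 in each library. The ratios to Tiparp, Arnt, Nqo1 and, less widely, Ahrr are highest in replicate 3 and lowest in replicate 4.

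The spread of each gene between libraries was tested over the whole table with an edgeR quasi-dispersion test, which sets a gene's dispersion against the trend for its abundance. No member passed an adjusted p of 0.05, and 1 gene of the 12156 tested (0.00823%), Xist, did. At an unadjusted p under 0.05 there were 2 members, Ahr and Cyp1b1, beside 4.90% of all genes. In Ahr the dispersion was 22.8 times the trend (edgeR, adjusted p = 0.558) and in Cyp1b1 19.9 times (edgeR, adjusted p = 0.597). In Arnt, Tiparp and Nqo1 it was 0.786, 0.951 and 0.119 times the trend, and in Cyp1a1 and Ahrr 1.52 and 1.80 times (edgeR, adjusted p from 0.991 to 0.998).

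The outcome for Ahr and Cyp1b1 depended on the setting. Without a filter on low counts both were called (edgeR, adjusted p = 0.00596 and 0.0113), together with 0.592% of genes. With a mean count of at least 50 neither was called, and 0.0470% of genes were. Without replicates 1, 2, 3 and 4 in turn no member was called either, with 0.00824%, 0.00814%, 0.00802% and 0.165% of genes. Over all alternatives run with edgeR the adjusted p ran from 0.00596 to 0.774 for Ahr and from 0.0113 to 0.904 for Cyp1b1. DESeq2 marked both as dispersion outliers, along with 0.847% of genes. The fold between the highest and the lowest library of Ahr, 1.88 in CPM, was 1.45 without replicate 3 and 1.48 without replicate 4. For Cyp1b1 it was 1.71, with 1.35 when replicate 3 was left out and 1.5 when replicate 4 was.

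**Figure D4:**
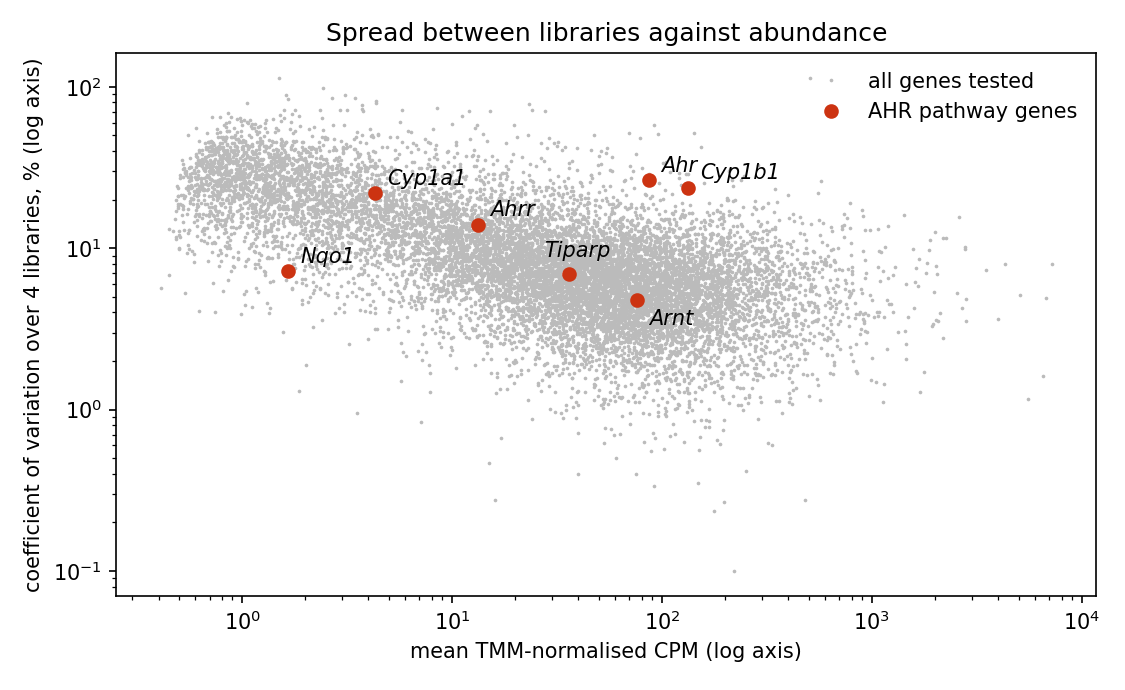
Coefficient of variation over the 4 libraries (%, log axis) against mean TMM-normalised CPM (log axis) for the 12156 genes tested (grey), with the 7 AHR pathway genes in red. Ahr at 26.4% and Cyp1b1 at 23.7% lie above most genes of their abundance, and Arnt at 4.8%, Tiparp at 6.96%, Cyp1a1 at 22.0% and Ahrr at 14.0% lie within the cloud.

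The sequence just before the start of the 3 targets and feedback genes that shared the pattern with Ahr is given below, since members that vary together may be compared for the AHR-ARNT core. The windows are the 250 bases before the RefSeq start (GRCm38.p6, 5′ to 3′ on the strand of the gene), and capitals mark GCGTG or its reverse complement CACGC. They are chr17:79715062-79715311 (minus strand) for Cyp1b1, chr9:57697363-57697612 (plus strand) for Cyp1a1 and chr13:74292332-74292581 (minus strand) for Ahrr. Those of Cyp1b1 and Ahrr lie just outside the deposited gene spans, and that of Cyp1a1 lies within its span, which begins farther upstream.
Cyp1b1: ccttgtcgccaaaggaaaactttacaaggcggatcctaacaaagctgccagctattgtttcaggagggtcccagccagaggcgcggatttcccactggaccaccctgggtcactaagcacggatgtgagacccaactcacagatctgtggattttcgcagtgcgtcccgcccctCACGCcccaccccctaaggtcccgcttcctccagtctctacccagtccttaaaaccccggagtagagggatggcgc
Cyp1a1: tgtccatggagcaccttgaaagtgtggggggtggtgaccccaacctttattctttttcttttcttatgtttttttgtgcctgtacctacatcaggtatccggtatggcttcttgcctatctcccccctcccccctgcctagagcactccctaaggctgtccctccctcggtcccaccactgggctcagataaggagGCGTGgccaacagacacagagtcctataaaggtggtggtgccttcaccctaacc
Ahrr: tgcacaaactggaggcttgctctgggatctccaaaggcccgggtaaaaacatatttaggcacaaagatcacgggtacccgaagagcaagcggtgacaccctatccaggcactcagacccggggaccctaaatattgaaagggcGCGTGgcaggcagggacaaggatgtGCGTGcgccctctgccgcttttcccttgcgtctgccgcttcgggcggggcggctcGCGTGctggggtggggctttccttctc
The core was matched on both strands. It was found 1 time in Cyp1b1, starting 76 bases before the start, 1 time in Cyp1a1, at 54 bases, and 3 times in Ahrr, at 107, 82 and 27 bases. Arnt and Tiparp, which did not share the pattern, held 1 match each, and Nqo1 held none. Of 32851 RefSeq windows of the same length, 28.2% held a match. With the flanking base, as TNGCGTG on both strands, only Ahrr of these genes held a match (1 match, beside 4.10% of windows). A match describes letters in the window and is not a binding site, and the best studied AHR enhancers of Cyp1a1 lie farther upstream than these windows.

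Of the listed classical genes of the AHR response, those outside the 7 members held few counts. Reads that map to several places or overlap several genes were not counted, so a gene that shares sequence with another is set too low. The xenobiotic battery list had 9 genes, among them Cyp1a1, Cyp1b1, Tiparp, Ahrr and Nqo1, and only these 5 passed the filter on low counts. Their median difference between replicates 3 and 4 was 0.50 log2 units. Ugt1a6a, a glucuronosyltransferase gene, held 11 counts over the 4 libraries, and the aldehyde dehydrogenase gene Aldh3a1 held 2. The glutathione transferase gene Gsta1 held 0 counts, which allows up to 3 counts in a library (1.10 TPM in the shallowest, replicate 3, and 0.299 in the deepest, replicate 1).

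The cytosolic complex that holds AHR was abundant. The HSP90 genes Hsp90ab1 and Hsp90aa1 had 5511 ± 235 and 911 ± 50.1 TPM, and Ptges3 (p23) had 253 ± 8.80 TPM (SD, n = 4). Between replicates 3 and 4 these 3 genes differed by 0.15 to 0.22 log2 units. None of the 3 passed the edgeR test (adjusted p = 0.991 for each).

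Of the 16 bHLH-PAS relatives and coactivators, 10 passed the filter and none was called by the edgeR test of spread, which called 0.00823% of all genes; a count of 0 in this or the next lists therefore says little about them. The 4 highest were Hif1a at 401 ± 57.6 TPM and the coactivator genes Ncoa3, Ncoa1 and Ncoa2 at 74.9 ± 2.43, 28.2 ± 1.19 and 21.3 ± 1.60 TPM (SD, n = 4). Hif1a, the other main partner of ARNT in this list, had 379, 389, 353 and 485 TPM in replicates 1 to 4, lowest in replicate 3 and highest in replicate 4 (edgeR, adjusted p = 0.991). Its order of replicates 3 and 4 was thus the reverse of that of Ahr.

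Genes described as AHR targets in immune cells differed in both directions between replicates 3 and 4. Of 9 such genes 7 passed the filter, of which 4 were higher and 3 lower in replicate 3, beside 49.6% of all genes higher. Their median difference was 0.05 log2 units, and the edgeR test called none. The 4 highest were Il21 at 597 ± 21.5, Gpr15 (a gut homing receptor) at 54.8 ± 3.02, Il10 at 38.3 ± 5.11 and Socs2 at 27.5 ± 1.13 TPM (SD, n = 4). Il22, the AHR-dependent cytokine of Th17 cells, had 18.3, 16.3, 32.2 and 33.2 TPM in replicates 1 to 4, high in replicates 3 and 4 alike (edgeR, adjusted p = 0.875). Ikzf3, which encodes the transcription factor Aiolos, had 12.4, 12.0, 19.8 and 9.70 TPM, in the order seen for Ahr (edgeR, adjusted p = 0.597). Entpd1, which encodes the ectonucleotidase CD39, had 2.22, 2.08, 1.19 and 2.15 TPM, lowest in replicate 3 (edgeR, adjusted p = 0.991). Il22, Ikzf3 and Entpd1 are outside the 4 highest and were chosen after their values were seen.

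Several enzymes that make AHR ligands from tryptophan had few counts. Of the 13 genes of these routes 5 reached 1 TPM in all libraries, beside 47.6% of all protein-coding genes. The 5 include the transporter genes Slc7a5 and Slc3a2. The edgeR test called none of the 7 that passed the filter. Ido1, Ido2 and Tph1 held 2 counts each over all libraries, Tdo2 held 8 and Il4i1 held 53. The amino acid transporter subunits Slc7a5 and Slc3a2, which carry tryptophan and kynurenine, had 347 ± 30.3 and 209 ± 6.56 TPM. The kynurenine aminotransferase genes Kyat1 and Kyat3 had 8.68 ± 0.757 and 5.10 ± 0.409 TPM (SD, n = 4).

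The NRF2 arm, the second control of Nqo1, was well represented. Of its 12 genes 10 reached 1 TPM in all libraries, beside 47.6% of all protein-coding genes. None of the 11 that passed the filter was called by the edgeR test. Txnrd1, Gsr, Keap1 and Mafg had 145 ± 13.5, 92.2 ± 5.54, 63.7 ± 1.69 and 63.7 ± 2.97 TPM, while Nfe2l2, which encodes NRF2, had 40.7 ± 4.10 TPM (SD, n = 4). Nqo1, at 3.51 TPM, was below 10 of the 12 genes in the mean. The promoter window of Nqo1 held no match to the NRF2 core TGACNNNGC on either strand, a core found in 10.2% of windows. Sequence farther upstream of the gene was not searched, so whether Nqo1 has an NRF2 site there was not tested.

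**Figure D5:**
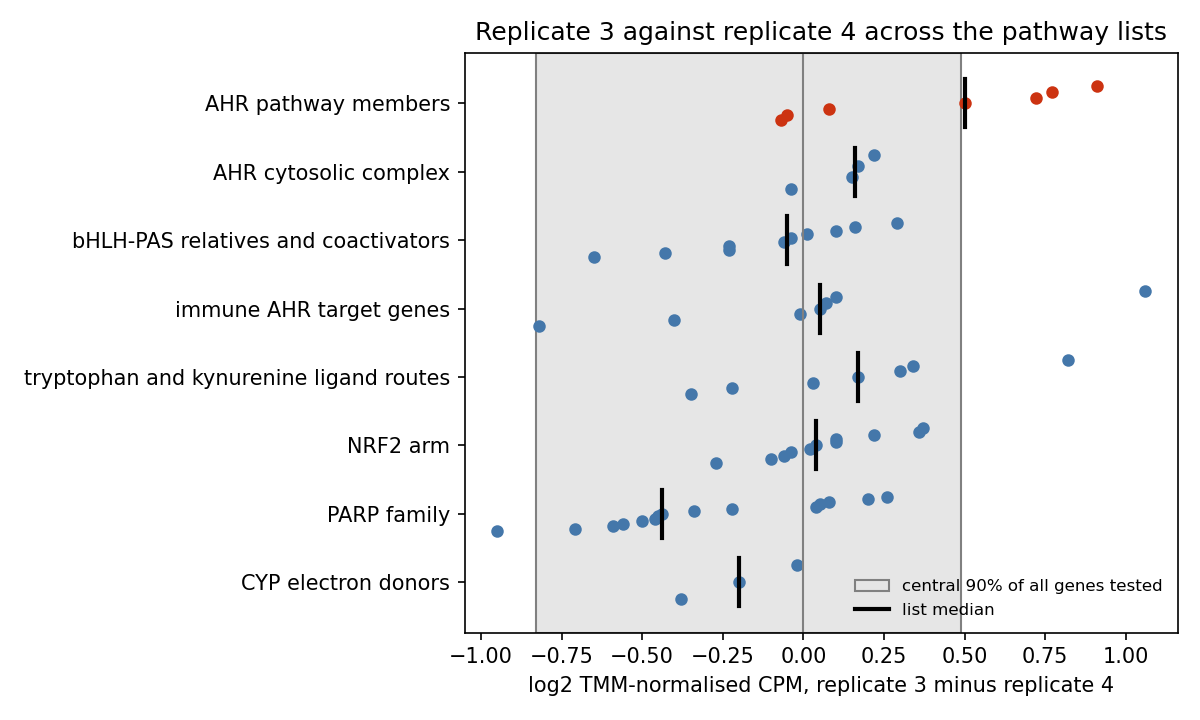
Log2 TMM-normalised CPM, replicate 3 minus replicate 4 (horizontal axis), for the genes that passed the filter in 8 lists (the xenobiotic battery is not drawn, since its 5 such genes are all members). Points are genes, black bars are list medians, and the grey band holds the central 90% of all genes tested (-0.83 to 0.49). Ahr, Cyp1b1, Cyp1a1 and Ahrr lie to the right of the band, as do Ikzf3 and Kynu, and the medians of the other lists drawn lie between -0.44 and 0.17.

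Genes whose pattern over the 4 libraries was most like that of each member were named by the Euclidean distance between centred log2 CPM values, among genes with a mean of at least 10 CPM. Nearest to Ahr were Kctd14, Angptl2, Car12, Ints4 and Neto2, at distances from 0.0586 to 0.123. Nearest to Cyp1b1 were Ints4, Gm26682, Ehd3, Ak1 and Il6st, at 0.0732 to 0.110. Il6st, which encodes the signalling chain of the interleukin 6 receptor, had 33.9, 31.1, 42.0 and 25.4 TPM in replicates 1 to 4. The distance between Ahr and Cyp1b1 themselves was 0.125, and that between Ahr and Arnt 0.735.

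Nearest to Cyp1a1 were Ndufaf4, Ehd3, Top1mt, Slc17a5 and Slc25a15, at 0.0525 to 0.0822. Nearest to Ahrr were Scoc, Slc16a10, Rrs1, Twistnb and Chchd4, at 0.0126 to 0.0273. Slc16a10, a transporter of aromatic amino acids, had 34.1, 34.7, 39.6 and 28.4 TPM in replicates 1 to 4. Closest to the steadier members were Zbtb25 for Arnt, Yeats4 for Tiparp and Pqlc1 for Nqo1, at 0.0185, 0.0109 and 0.0167. These distances rest on 4 libraries and are a description.

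Markers of other cell types were summed in each library, and their part in the Ahr pattern was not tested. The summed level of 5 macrophage markers was 6.06, 8.43, 4.92 and 7.60 TPM in replicates 1 to 4. Most of it was Cd68, which had 15 counts in replicate 3. The sum of 5 B-cell markers was 13.6, 15.4, 8.43 and 15.6 TPM, with Ms4a1 at 0 counts. Nearly all of it was Ighm, which had 44 counts in replicate 3. The 5 dendritic-cell markers summed to 0.284 to 0.418 TPM with H2-Aa at 0 counts, the 6 stromal, endothelial and epithelial markers to 0.524 to 1.04 TPM with Cdh5 at 0 counts, and the 5 gamma-delta and innate lymphoid markers to 0.465 to 1.03 TPM with Ncr1, Klrb1c and Zbtb16 at 0 counts. The 4 neutrophil markers summed to 0.121 to 0.405 TPM with 3 at 0 counts, and the 3 hepatocyte markers were all at 0 counts. None of these lists had its highest sum in replicate 3, where the sums rest on few counts. The neutrophil and dendritic-cell sums were lowest in replicate 4, as was Ahr. Of the Th17 markers, Il17a and Il17f were highest in CPM in replicate 3 and lowest in replicate 4, by 1.26-fold and 1.19-fold, and their part in the Ahr pattern was not tested.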

How the data were processed

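The authors deposited 1 table of raw counts (read pairs per gene) for each of the 4 libraries. Per the file headers, featureCounts 1.4.6-p4 produced them from exons in GENCODE mouse release 13, reverse-stranded (option 2), with both mates required to align. The build is mm10 per the labels, and no source used here gives the aligner's version. Reads that map to several places or overlap several genes were not counted under these options, so genes with close copies are set too low.

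Symbols came from GENCODE mouse release 21 by identifier (50376 of 50600 matched, the other 224 holding 0.0104% of counts). TPM were computed from the counts and the deposited exonic lengths. An edgeR 4.0.16 quasi-likelihood fit with an intercept alone (TMM, filterByExpr) was made on the whole table, with each gene's quasi-dispersion over its trend tested against the F distribution (upper tail, Benjamini-Hochberg over 12156 genes). DESeq2 1.42.0 was an alternative. Level pairs used an exact sign-flip permutation test. Intervals (95%, exact Poisson) and floors (3 counts for a count of 0) cover counting error only. Promoter sequences are from RefSeq (GRCm38.p6), whose table matched 6 of the 7 genes; the entry for Ahr was not used here.

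The 7 genes and all lists were chosen with earlier results of these data known. Named are every member, the 4 highest genes of each list, and the 5 genes nearest to a member in pattern (for Arnt, Tiparp and Nqo1 the nearest 1); others were chosen after their values were seen, and some listed genes are not reported here.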

Additional observations from a re-analysis of the deposited data

Results flagged for a closer look

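Among 34 genes checked (the members and the 4 highest of each list), 2 had a library far from the others by Dixon's criterion, about as many as chance gives (about 1 in 20 groups). No member was among them. Slc3a2 had 199, 212, 213 and 212 TPM in replicates 1 to 4, with replicate 1 low and its gap to the next library 0.952 of the range, above the 95% critical value for 4 samples. Mafg had 62.4, 68.1, 61.9 and 62.2 TPM, with replicate 2 high and a gap of 0.909 of the range.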

How the results depend on the processing

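The number of members called variable, 0 in the edgeR test, was 2 without a filter on low counts and 2 by DESeq2's dispersion outliers (Ahr and Cyp1b1 in each), and stayed at 0 without any single replicate, with DESeq2's size factors and with a mean count of at least 50, under which Nqo1 was not tested. Over all genes the calls were 1, against 126 without a filter, 103 by DESeq2, 5 with a mean count of at least 50, and 1 to 20 without single replicates, 20 being without replicate 4. The cause was not tested. Of the 21 level differences, the order of Cyp1a1 and Ahrr alone was reversed, at -1.44 in CPM, which drops the length correction. On that scale Ahr over Arnt was 0.15 in place of 0.52, no longer with 1 order in every library (exact sign-flip permutation test, p = 0.625), Arnt over Tiparp was 1.05 in place of 0.19, and Ahrr over Nqo1 was 2.42 in place of 0.33. At a threshold of 5 TPM in every library 4 of the 7 genes passed, in place of 7 at 1 TPM. All differences between replicates 3 and 4 moved by less than the spread between libraries with DESeq2's size factors, library totals alone or TPM. The counting intervals of Cyp1a1 in replicates 3 and 4 were apart in TMM-scaled CPM but overlapped in TPM. Folds between extreme libraries without single replicates were added after the data were seen. No paired analysis was possible because there is 1 group. The depth of replicate 3 limits Nqo1, with 16 counts there, and Cyp1a1, with 52. The 4 libraries cannot give a pair of levels a p under 0.05.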

Other observations

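Tiparp belongs to the PARP family, whose 15 listed genes were all expressed. Each had at least 1 TPM in every library, as did 47.6% of all protein-coding genes. The highest were Parp1 at 197 ± 13.2, Parp2 at 86.1 ± 2.15, Tnks2 at 82.3 ± 4.96 and Parp3 at 62.7 ± 6.63 TPM (SD, n = 4). None of the 15 was called by the edgeR test. In 10 of them the level was lower in replicate 3 than in replicate 4, while 49.6% of all genes tested were higher in replicate 3. Counting intervals were apart in 6 with replicate 3 lower, beside 14.7% of all genes tested. They were apart in 2 with replicate 3 higher, beside 17.4%. The median difference was -0.44 log2 units in CPM, beside 0.00 over all genes tested. Parp14, an interferon-induced member, had 14.7, 15.8, 11.4 and 22.6 TPM in replicates 1 to 4 (edgeR, adjusted p = 0.616). Parp9, also interferon-induced, had 32.7, 34.4, 29.2 and 48.7 TPM (edgeR, adjusted p = 0.819). Both were chosen after their values were seen.

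The genes that supply electrons to CYP1 enzymes were present in every library. Cyb5a, Cyb5r3 and Por, the cytochrome P450 reductase gene, had 130 ± 4.99, 61.0 ± 7.36 and 57.2 ± 4.27 TPM (SD, n = 4). Between replicates 3 and 4 the difference was -0.38 log2 units of CPM for Cyb5r3 and -0.20 for Por, with counting intervals apart, and -0.02 for Cyb5a, whose intervals overlapped. Over all genes tested, 14.7% had intervals apart with replicate 3 lower, and 49.6% were higher in replicate 3 by any amount. None of the 3 was called by the edgeR test.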
